A study of Mus musculus with 6 samples.

Results

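The genes described here encode histocompatibility molecules and the proteins that load them with peptide, measured in mouse liver with and without the ubiquitin ligase adaptor KEAP1. They were taken as every probe set whose annotated symbols include one starting with H2-, or equal to B2m, Tap1, Tap2, Tapbp, Cd74 or Ciita, which gave 74 probe sets of 45037 that are not array controls. These carry 40 gene symbols. The livers came from 6 males, 9 weeks old, and their RNA was read on single-colour Affymetrix arrays, 1 mouse per array. In the 3 knockouts, numbered 3, 4 and 5, an albumin-driven Cre acts on a floxed Keap1 allele that lies opposite a null allele (Alb-Cre:Keap1(flox/-)). The 3 controls, numbered 1, 2 and 3, carry the same Cre and a floxed allele opposite a wild-type allele (Alb-Cre:Keap1(flox/+)), so where Cre acts they retain the wild-type copy alone. All 6 mice had received vehicle only, made of 10% DMSO, 10% Cremophor-EL and 80% PBS. The albumin promoter is active in hepatocytes, whereas the null allele is not limited to them. Sources used here do not give the strain, and with it the H2 haplotype. Mouse haplotypes differ in the sequence and number of H2 genes, H2-Q genes among them, so a lower H2 signal may reflect alleles or gene content that the probes read less well as well as less RNA, and these were not told apart.

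Class I molecules are heavy chains held together with the light chain B2m. They display peptides that the proteasome has cut and that the transporter Tap1/Tap2 has moved into the endoplasmic reticulum, where tapasin (Tapbp) helps to load them. H2-K1 and H2-D1 are the classical class I genes of the mouse, and the H2-Q, H2-T and H2-M genes are the nonclassical ones. Among these, H2-Q10 encodes a secreted protein made by hepatocytes, and H2-Q7 and H2-Q9 encode the Qa lymphocyte antigen held to the membrane by a lipid anchor. Class II molecules (H2-Aa, H2-Ab1, H2-Eb1) present peptides from endosomes on dendritic cells, B cells and macrophages. Cd74 is their invariant chain, and Ciita is the coactivator that turns their genes on. Nlrc5 is its counterpart for class I. Interferons induce both classes.

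Class I genes share a block of regulatory elements upstream of their start. The promoter windows of H2-Q4, H2-Q6, H2-Q7 and H2-Q10 are therefore shown first, with that of H2-K1 as a classical gene for comparison. RefSeq (GRCm38.p6) gave a window of 300 bases, from 250 before to 50 after the annotated start, for 26 of the 40 symbols. The windows of H2-Q4 (chr17:35379367-35379666, plus strand), H2-Q6 (chr17:35424600-35424899, plus), H2-Q7 (chr17:35438905-35439204, plus), H2-Q10 (chr17:35469839-35470138, plus) and H2-K1 (chr17:34000298-34000597, minus, the first of 2 listed windows) are given 5′ to 3′ on the strand of the gene. Capitals mark an NF-κB-like element (GGGATTNCC), an interferon-response-like element (TTTCACTTC) and the CCAAT box (ATTGG), searched on both strands and not overlapping one another here.
H2-Q4: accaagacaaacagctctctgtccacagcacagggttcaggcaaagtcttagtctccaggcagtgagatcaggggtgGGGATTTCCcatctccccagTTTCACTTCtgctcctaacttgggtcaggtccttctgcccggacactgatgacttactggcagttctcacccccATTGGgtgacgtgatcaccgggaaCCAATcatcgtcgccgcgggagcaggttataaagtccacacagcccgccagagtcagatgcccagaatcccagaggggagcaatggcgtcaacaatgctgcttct
H2-Q6: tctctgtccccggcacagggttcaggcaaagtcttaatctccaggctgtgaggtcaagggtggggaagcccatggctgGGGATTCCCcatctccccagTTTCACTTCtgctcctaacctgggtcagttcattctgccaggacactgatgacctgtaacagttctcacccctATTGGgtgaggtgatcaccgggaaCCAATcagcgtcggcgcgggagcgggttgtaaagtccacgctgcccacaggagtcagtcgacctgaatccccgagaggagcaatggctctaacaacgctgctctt
H2-Q7: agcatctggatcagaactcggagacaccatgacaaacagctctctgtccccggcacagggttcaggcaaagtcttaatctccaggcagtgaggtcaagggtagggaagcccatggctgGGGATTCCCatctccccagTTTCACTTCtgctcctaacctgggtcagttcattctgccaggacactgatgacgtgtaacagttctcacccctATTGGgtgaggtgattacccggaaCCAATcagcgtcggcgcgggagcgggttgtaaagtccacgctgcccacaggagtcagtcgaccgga
H2-Q10: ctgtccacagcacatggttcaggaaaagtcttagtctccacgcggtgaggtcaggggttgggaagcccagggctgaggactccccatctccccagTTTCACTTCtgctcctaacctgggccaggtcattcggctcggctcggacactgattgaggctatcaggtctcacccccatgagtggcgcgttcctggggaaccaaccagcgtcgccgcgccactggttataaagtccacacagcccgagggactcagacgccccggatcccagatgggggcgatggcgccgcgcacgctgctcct
H2-K1: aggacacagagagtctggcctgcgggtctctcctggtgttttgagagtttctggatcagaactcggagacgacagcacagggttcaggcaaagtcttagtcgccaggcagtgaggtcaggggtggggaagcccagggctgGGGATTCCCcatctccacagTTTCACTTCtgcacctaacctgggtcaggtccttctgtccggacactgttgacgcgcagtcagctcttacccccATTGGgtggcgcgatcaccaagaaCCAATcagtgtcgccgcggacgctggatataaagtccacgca

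H2-Q4, H2-Q6, H2-Q7 and H2-K1 hold all 3 elements in the same order with 2 CCAAT boxes each. Of the 3 elements H2-Q10 holds the interferon-response-like one alone. H2-Q2, whose window is not shown, holds the CCAAT box alone. H2-Q5, H2-Q8 and H2-Q9, which are listed for probe sets that fell, had no window. The NF-κB-like letters occur in 0.938% of all 32851 promoter windows, the interferon-response-like letters in 0.505% and the CCAAT box in 37.4%. Of 5 H2-Q genes with a window, 4 hold the interferon-response-like element and 3 the NF-κB-like one, against 3 and 2 of 9 other class I genes. Of 8 class II genes with a window 0 hold either, and all 8 hold a CCAAT box. Of the 4 remaining genes, B2m, Tap1, Tapbp and H2-Ke6, likewise 0 hold either and all 4 hold a CCAAT box. These counts by class are descriptive and were not tested. The core of the NRF2 site (TGACNNNGC), present in 12.4% of windows, is found in 1 of 5 H2-Q genes, H2-Q10, and in 2 of 9 other class I and 2 of 8 class II genes. A match is a description of the letters, not of binding.

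The arrays were of like quality. Correlations of log2 signal, taken over tested probe sets that are no independent replicates, were 0.965 to 0.972 when 2 arrays shared a genotype and 0.954 to 0.959 when they did not. Actin signal at the 3′ end was 1.54 to 1.90 times that at the 5′ end, a check of RNA integrity whose extremes both came from controls. The brighter Keap1 probe set stood at 29.7% of control (limma adjusted p = 0.0102) and the other at 62.5% (0.222), and sources used here do not say whether either lies in the deleted part. The liver marker Alb measured 25933 to 28702 in the knockouts and 22569 to 25027 in the controls. Of 7 hepatocyte markers 0 passed the test, 6 lay above the controls (median log2 difference 0.20), and in 5, Alb, Apoa1, Ttr, Cps1 and Hnf4a, every knockout exceeded every control. Differences are log2(signal + 16) in the knockouts minus the controls, tested with limma over the 27022 probe sets whose mean signal reached the 40th percentile (84.2). A probe set rose or fell if its Benjamini-Hochberg adjusted p was under 0.05. By this rule 415 probe sets changed, 1.54% of those tested, 195 lower (0.722%) and 220 higher (0.814%).

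Of the 74 probe sets 47 passed the filter on low signal, and of these 4 fell and 0 rose. All 4 belong to H2-Q genes. The median difference of the 47 was -0.19, against -0.04 for all probe sets tested, and 35 of 47 lay below the controls, against 15020 of 27022. The 3 knockouts lay below all 3 controls in 10 of 47, where 11.4% of all probe sets do so, and above them in 2, where 9.1% do. By class, 4 of 5 probe sets listed for H2-Q genes alone fell, with a median of -1.32. For other class I genes it was 0 of 20 with a median of -0.17, for class II 0 of 12 with -0.40, for the class I partners B2m, Tap1, Tap2 and Tapbp 0 of 6 with 0.14, and for Cd74 and Ciita 0 of 2. The set shared by H2-Q5 and H2-K1, at 0.32, and that of H2-Ke6, at -0.03, were kept apart and did not pass. The differences between classes were not tested. Without the mean-variance trend 1 of the 4 calls remained, that of H2-Q7/H2-Q9 (adjusted p = 0.0349), and 0 of 27022 probe sets passed a test that takes the variance of each alone, where 2542 had an unadjusted p under 0.05. In 3 of the 47, the H2-Q4/H2-Q6/H2-Q8 set, 1 set of H2-Aa and H2-T24, the controls alone reached the filter, so their inclusion favoured a lower value in the knockouts.

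The H2-Q genes lie beside each other on chromosome 17. The largest fall was that of the probe set listed for both H2-Q7 and H2-Q9 (1418536_at), whose signal cannot be divided between them. Its signal was 408.6, 589.6 and 515.4 in knockouts 3, 4 and 5, and 2441.1, 2035.8 and 1415.0 in controls 1, 2 and 3. The groups did not overlap, and control 3 was the lowest control. The mean was 505 ± 91.0 against 1964 ± 517 (SD, n = 3 each), 3.75-fold lower, with a log2 difference of -1.91, a standard error of 0.21 and a limma adjusted p of 0.00292. It passed without each array in turn, at 3.33-fold to 4.36-fold lower.

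The probe set listed for H2-Q6 and H2-Q8 (1431008_at) fell 2.50-fold. Its signal was 506.7, 696.1 and 503.8 in the knockouts and 1728.1, 1569.0 and 1082.4 in the controls, again with control 3 the lowest control and no overlap. The log2 difference was -1.32, with a standard error of 0.20 and an adjusted p of 0.0144. The call was lost without knockout 3, knockout 5, control 1 or control 2 (adjusted p = 0.0686, 0.0512, 0.0521 and 0.0561), while the size stayed between 2.28-fold and 2.88-fold.

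H2-Q5, annotated in RefSeq as a transcribed pseudogene, has a probe set of its own (1430802_at) that fell 2.25-fold. The knockouts measured 750.0, 653.7 and 621.5 and the controls 1170.7, 1746.4 and 1772.5. Here control 1 was the lowest control, and the knockouts were close together. The log2 difference was -1.17, with a standard error of 0.17 and an adjusted p of 0.0137, and it was lost by a narrow margin without control 2 or control 3 (0.0512 and 0.0515). Another H2-Q5 probe set, at 3.3 to 16.2 in all mice, was under the filter. The set listed for H2-Q5 and H2-K1 together lay above the controls, by 0.32, and did not pass (limma adjusted p = 0.4995).

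The probe set listed for H2-Q4, H2-Q6 and H2-Q8 (1451644_a_at) measured 56.8, 78.6 and 85.0 in the knockouts and 250.4, 260.3 and 163.0 in the controls, 2.67-fold lower (log2 difference -1.41, standard error 0.26, adjusted p = 0.0360). Its call is the least firm of the 4, since it was lost with no filter (adjusted p = 0.0785), after quantile normalization (0.0641) and cyclic loess (0.0635), and without any array except control 3 (0.0589 to 0.149). The probe sets of H2-Q6, H2-Q8 and H2-Q4 share targets, so the 4 falls are not 4 separate genes.

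H2-Q10, the liver's secreted class I gene, did not pass the test. Its signal was 17893.9, 15967.0 and 14400.9 in the knockouts and 20358.9, 19246.2 and 16661.3 in the controls, so that the groups overlapped. The log2 difference was -0.22, with a 95% interval of -0.48 to 0.04 (adjusted p = 0.414). After quantile normalization it was -0.35 and passed the test (adjusted p = 0.0440). Whether it differed from the other 4 probe sets was not tested on independent values. The remaining H2-Q probe set, that of H2-Q2, lay between 0.8 and 46.3 and was not tested.

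**Figure D1:**
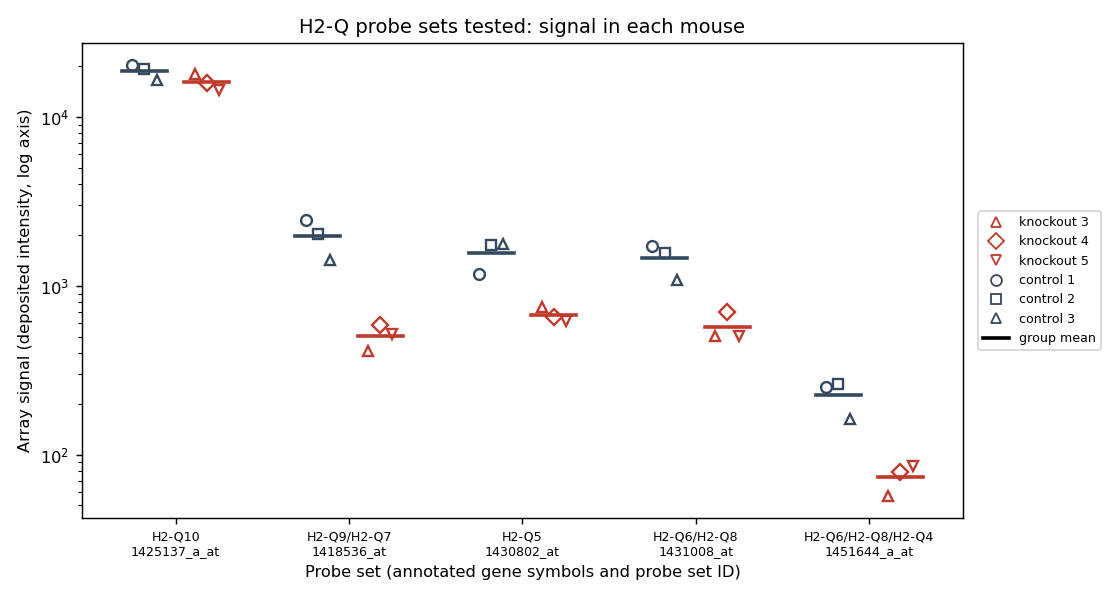
Signal of the 5 tested H2-Q probe sets on a log axis, with 1 point per mouse (controls dark, knockouts red) and a bar at each group mean. The 4 probe sets of H2-Q4 to H2-Q9 separate the groups, with H2-Q7/H2-Q9 at 409 to 590 against 1415 to 2441, whereas the points of H2-Q10 overlap.

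The classical class I genes did not pass the test. The brightest H2-K1 probe set (1425336_x_at) measured 17591.8, 16697.9 and 16191.9 in the knockouts and 17833.1, 17599.8 and 15032.2 in the controls. The groups overlapped fully, with a log2 difference of 0.00 (95% interval -0.22 to 0.22, adjusted p = 0.993). This near-zero value turned to -0.12 after quantile normalization, -0.11 after cyclic loess and -0.16 after scaling on the hybridisation controls. The brightest H2-D1 probe set (1425545_x_at) measured 13570.7, 11528.3 and 10862.9 against 13462.2, 13058.5 and 11075.4, a log2 difference of -0.07 (interval -0.33 to 0.20, adjusted p = 0.845). A fall of the size seen in H2-Q5 or H2-Q7/H2-Q9 lies outside both intervals. Both sets are of a kind (_x_at) that can match several transcripts, so the intervals bound their signal and not the RNA of a single gene.

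Of the further probe sets of H2-K1, 2 bright ones stood at -0.10 and -0.12 and a dimmer one at 0.13. The remaining H2-D1 sets ranged from -0.58 to 0.14. Among these, 2 dim ones, 1426324_at at 380 ± 45.2 against 581 ± 114 and 1450170_x_at at 544 ± 51.7 against 776 ± 102, had all knockouts below all controls (log2 differences -0.58 and -0.50, adjusted p = 0.173 and 0.147). Probe sets whose names end in _x_at or _s_at can match several transcripts, and class I genes are near-identical over long stretches, so the sets of H2-K1 and H2-D1 may share signal with other class I genes. Of the tested H2-D1 sets only 1426324_at has no such ending, and its 95% interval was -0.98 to -0.18. A probe set listed for H2-K1 and H2-D1 together differed by -0.31 (adjusted p = 0.425), and one listed for H2-K1 and H2-Q5 by 0.32 (0.50).

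The nonclassical genes outside H2-Q also gave no call. H2-T23, the ligand of the inhibitory NKG2A receptor on natural killer cells, has a probe set shared with H2-T-ps (1449556_at). It measured 7190.1, 8064.1 and 8662.8 in the knockouts and 10930.7, 9296.0 and 8127.8 in the controls (log2 difference -0.24, adjusted p = 0.427). The set shared by H2-T9, H2-T10 and H2-T22 differed by -0.19 (adjusted p = 0.592), H2-M3, which presents formylated peptides, by -0.17 (0.705), and H2-M10.1 by -0.32 (0.558). H2-Bl, at 173 ± 4.52 against 231 ± 39.6, had no overlap between the groups but did not pass (-0.37, 0.393). H2-T24 differed by -0.38 (0.591) and the tested set of H2-T3 by 0.13 (0.863). In the H2-T3 set the value turned to -0.03 after scaling on the hybridisation controls. The 9 other class I probe sets under the filter, among them those of H2-T18, H2-M9 and H2-D4, lay between 3.7 and 140.0.

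**Figure D2:**
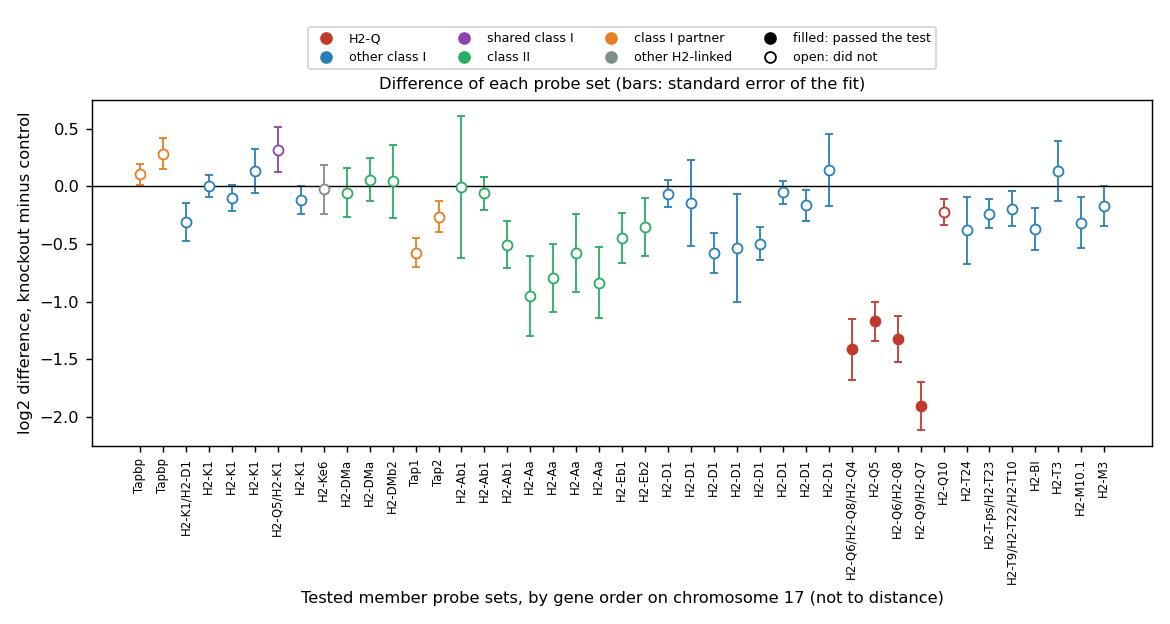
Log2 difference, knockout minus control, of the 43 tested probe sets with a gene on chromosome 17, in gene order and not to distance, with bars for the standard error and filled points for those that passed. A probe set with several symbols stands at its leftmost gene. The 4 filled points, between -1.17 and -1.91, lie together from H2-Q4 to H2-Q7, with H2-D1 on their left and H2-Q10, at -0.22, on their right.

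On the reference chromosome the H2-Q genes that fell lie between H2-D1 on one side and H2-Q10 and the H2-T genes on the other. H2-Q2, which was under the filter and not tested, lies between H2-D1 and H2-Q4. Genes of the same stretch that are not histocompatibility genes were also compared, a count chosen after the values were seen. Of 80 such genes tested between H2-K1 and H2-M2, 1 fell and 0 rose, with a median difference of -0.02. Taking each gene by its brightest probe set, 1.87% of all 13036 genes changed, 0.89% lower and 0.982% higher. The gene that fell was Psmb9, an interferon-induced subunit of the immunoproteasome, which trims antigens for class I.

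The peptide transporter had values below the controls, without passing the threshold. Tap1 (1416016_at) measured 458.3, 426.1 and 502.5 in the knockouts and 742.7, 680.2 and 669.3 in the controls. The groups did not overlap, and the log2 difference was -0.58 with a standard error of 0.13 (1.49-fold lower, adjusted p = 0.0672). It passed with the filter at the 60th percentile (0.0461), on the scale of the hybridisation controls (0.0287), with array weights (0.0406) and in the fit over gene means (0.0414). Psmb9 fell from 603 ± 22.8 to 356 ± 53.8, 1.68-fold lower (log2 difference -0.74, adjusted p = 0.0427), but passed in only 1 of 6 runs without an array, that without knockout 5 (0.0391, and 0.0928 to 0.169 in the others). It was also lost with no filter (0.0685). The promoter windows of Tap1 and Psmb9, which are read in opposite directions, overlap by 275 bases.

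Tap2, the other subunit of the transporter, measured 309.3, 348.6 and 324.4 against 421.5, 369.1 and 398.8, without overlap and without a call (log2 difference -0.26, adjusted p = 0.421). B2m had values above the controls. Its brighter probe set (1452428_a_at) measured 30448.4, 30668.2 and 27845.3 in the knockouts and 26508.9, 26175.7 and 22558.7 in the controls. The groups did not overlap, but the log2 difference of 0.24 (95% interval 0.03 to 0.46) did not pass (adjusted p = 0.291) and shrank to 0.05 after quantile normalization. The median of the hepatocyte markers, 0.20, likewise became 0.02 there, and its part in the B2m value was not tested. The other B2m set differed by 0.17 (0.393). The 2 sets of Tapbp differed by 0.10 and 0.28 (adjusted p = 0.655 and 0.383), the former turning to -0.06 after scaling on the hybridisation controls. The other 3 Tap1 probe sets lay between 2.6 and 68.9 and were not tested.

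No class II probe set passed the test, and the values of the controls were spread. The median deviation of the 12 tested sets from the control mean was -0.25, -0.43 and -0.41 in the knockouts, and 0.29, 0.18 and -0.44 in controls 1, 2 and 3. The brightest H2-Aa probe set (1435290_x_at) measured 1015.7, 1206.6 and 757.2 in the knockouts and 3088.3, 2186.5 and 1014.8 in the controls. Controls 1 and 2 stood apart, while control 3 lay among the knockouts. The log2 difference was -0.95 with a standard error of 0.35 and did not pass (adjusted p = 0.256). It was -1.40 without control 3, where it passed (0.0368), and -0.60 without control 1. Of the other 3 tested H2-Aa sets, which all target the same gene, the differences were -0.84, -0.79 and -0.58 (adjusted p = 0.256, 0.260 and 0.476), and that of 1452431_s_at passed without control 3 as well (-1.23, 0.0273).

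H2-Eb1, the β chain of the other classical class II molecule, also had control 3 lowest among the controls. It measured 1168.1, 962.2 and 830.3 in the knockouts and 1793.6, 1371.3 and 971.6 in the controls, with overlap (log2 difference -0.45, adjusted p = 0.386). The 3 H2-Ab1 sets disagreed in size, at -0.06, -0.51 and 0.00 (adjusted p = 0.891, 0.299 and 0.999), and in the last of these control 3, at 33.5, was far under the other mice. Its brightest set turned to 0.04 without control 1. H2-Eb2 differed by -0.35 (adjusted p = 0.565). The H2-DM genes, whose products exchange the peptides of class II molecules, showed no call, with H2-DMa at -0.06 and 0.06 and H2-DMb2 at 0.04 (adjusted p = 0.936, 0.922 and 0.968). The 95% interval of H2-DMb2 ran from -0.67 to 0.76, so a difference anywhere in that range cannot be told from 0.

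Cd74 measured 1263.6, 1211.1 and 1097.9 in the knockouts and 2298.9, 1917.3 and 1296.5 in the controls. Every knockout lay below every control, control 3 by a small margin. The log2 difference was -0.58 with a standard error of 0.19 (adjusted p = 0.204), and -0.81 without control 3, where it passed (0.0410). Ciita was dim. Its tested probe set measured 76.3, 109.5 and 149.6 against 92.5, 86.5 and 132.1 (log2 difference 0.07, adjusted p = 0.942), a sign that turned after scaling on the hybridisation controls (-0.07) and with array weights (-0.02). Of the 22 class II probe sets 10 were under the filter, with signals of 1.6 to 135.9. Among them were all 3 sets of H2-Ea, listed in RefSeq as a transcribed pseudogene, at 1.6 to 81.4, and those of H2-Oa and H2-Ob. A dim H2-DMb2 set just under the filter (1443687_x_at, mean 82.3) measured 18.9, 82.0 and 14.3 against 135.9, 118.9 and 124.0, without overlap. H2-Ke6, a hydroxysteroid dehydrogenase gene that shares only the prefix, differed by -0.03 (adjusted p = 0.973), or 0.02 after median centring.

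**Figure D3:**
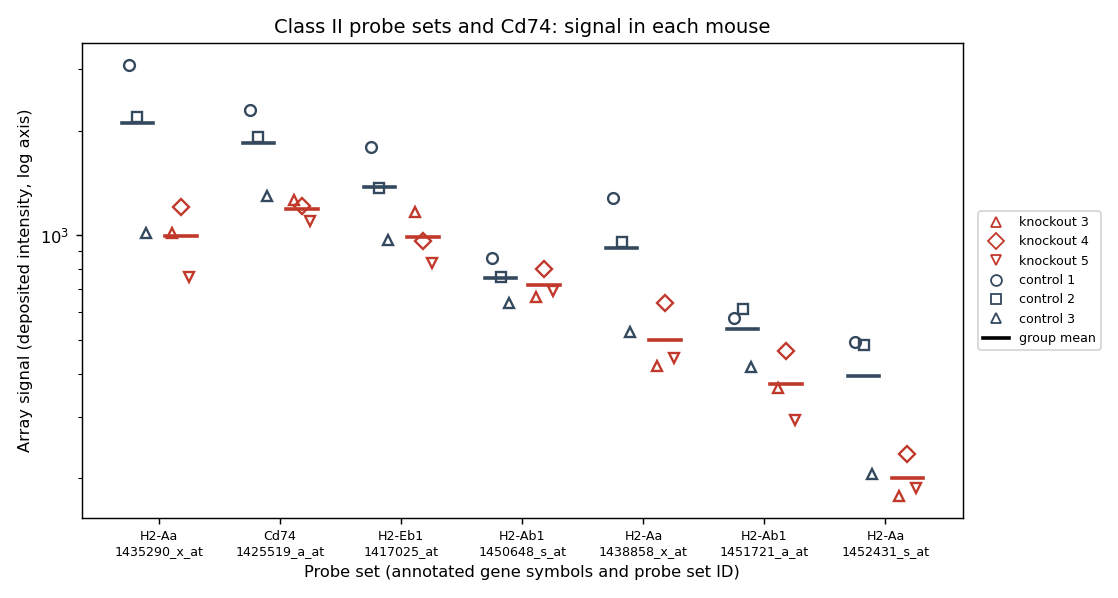
Signal of 6 class II probe sets and Cd74 on a log axis, with 1 point per mouse and a bar at each group mean. Controls 1 and 2 lie highest in all but 1 H2-Ab1 set, with H2-Aa (1435290_x_at) at 3088 and 2187, while control 3, at 1015, lies among the knockouts.

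Markers of the cells that carry class II overlapped between the groups in summed signal. In bulk liver, fewer cells of a type and less RNA per cell cannot be told apart. Of 8 dendritic cell markers with a probe set 5 were tested, 0 changed, and the summed signal of all 8 was 792.7 to 932.4 in the knockouts and 873.3 to 964.9 in the controls. The dendritic markers Xcr1, Clec10a and Ccr7 were under the filter. For 7 B cell markers, all tested and 0 changed, the sum was 986.9 to 1180.8 against 975.5 to 1299.5. For 15 macrophage and Kupffer cell markers, again with 0 changed, it was 19526 to 25332 against 14843 to 24351, lowest in control 2. For 6 markers of all leukocytes it was 3077.3 to 3809.0 against 2709.4 to 3574.4, with 0 changed. Single markers without overlap between the groups were Cd22 and Zbtb46, lower in the knockouts (log2 differences -0.92 and -0.40). Marco, Cd79a, Cd79b and Tyrobp were higher without overlap (1.40, 0.23, 0.30 and 0.39). In each of these 4 lists control 1 had the highest sum of the controls, and in all but the leukocyte list control 2 had the lowest. Of 11 T and NK cell markers 4 were tested and 1 fell, Lat (log2 difference -2.03, adjusted p = 0.0225), which reached the filter in the controls alone. Lat passed in 2 of 6 runs without an array. The other tested markers, Cd8a, Cd5 and Gzma, differed by 0.27, 0.18 and -0.27 and did not pass. The summed signal of all 11 was 1056.2 to 1268.7 in the knockouts and 1008.4 to 1350.2 in the controls. The defining markers Cd3d, Cd3e, Cd3g and Cd4 were under the filter. Endothelial and stellate markers (8 and 5 tested) had 0 changed. The part of any of these cells in the H2 values was not tested.

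The other genes of antigen processing were taken from lists of the pathway, drawn up with earlier results of these data known, each gene by its brightest probe set. Of 18 class I processing genes 1 fell, Psmb9, and 0 rose, with a median of 0.01. The immunoproteasome subunits Psmb8 and Psmb10 differed by -0.35 and -0.31 (adjusted p = 0.393 and 0.443), and the chaperones Calr, Canx and Pdia3 by 0.18, 0.13 and 0.05 (0.428, 0.560 and 0.896). Of 16 class II processing genes 0 changed, with a median of 0.01. Their largest differences were those of the endosomal protease Ctsl at 0.46 (adjusted p = 0.120) and of Marchf8, a ubiquitin ligase, at -0.43 (0.213). Of 7 class I-like genes outside the H2 family 0 changed. Hfe, the partner of the transferrin receptor that senses iron, differed by 0.40 (0.105) and Mr1, which presents vitamin metabolites, by -0.46 (0.511).

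Among 21 transcription factors and signalling genes of this pathway 0 changed and 16 lay below the controls, with a median of -0.09. The largest difference was that of Nlrc5, the class I transactivator. It measured 253.6, 355.7 and 354.7 in the knockouts and 643.2, 539.2 and 488.6 in the controls. The groups did not overlap, and the log2 difference was -0.77 with a standard error of 0.18 (1.71-fold lower, adjusted p = 0.0788). Irf2, an interferon regulatory factor, differed by -0.52 (adjusted p = 0.205). The interferon-γ receptor genes Ifngr1 and Ifngr2 differed by 0.06 and -0.15 (0.885 and 0.739).

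Interferon-induced genes outside antigen presentation were lower in the same livers. Of 29 tested 9 fell, 0 rose and 28 lay below the controls, with a median of -0.75, where 0.89% of all genes fell. This list too was drawn up with earlier results of these data known, so its share beside that of all genes is no test. Rtp4 fell 3.24-fold, from 2454 ± 687 to 732 ± 90.0 (adjusted p = 0.00339), and Ifit1, an antiviral RNA-binding protein, 2.81-fold, from 1274 ± 229 to 448 ± 110.5 (0.00939). Irf9, a subunit of the factor that carries the interferon signal to DNA, fell 2.23-fold (0.00379), the deubiquitinase Usp18 2.09-fold (0.00792), the GTPases Iigp1 and Irgm2 2.11-fold and 2.01-fold (0.0301 and 0.0328), Irf7 1.84-fold (0.0144), Cxcl10 1.76-fold (0.0488) and Xaf1 1.68-fold (0.0249). When each array was left out in turn, Rtp4, Ifit1, Irf9 and Usp18 passed in all 6 runs. Irf7 passed in 3 of 6, Iigp1 and Irgm2 in 2, and Cxcl10 and Xaf1 in 0. The count of falls was 4 to 7 without each array in turn, 2 without the variance trend, 0 with the variance of each gene alone, and 14 after scaling on the hybridisation controls. The summed signal of all 31 genes of the list with a probe set, 2 of them under the filter, was 21993 to 27505 in the knockouts and 38150 to 47345 in the controls. Whether the H2-Q falls depend on this group was not tested.

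**Figure D4:**
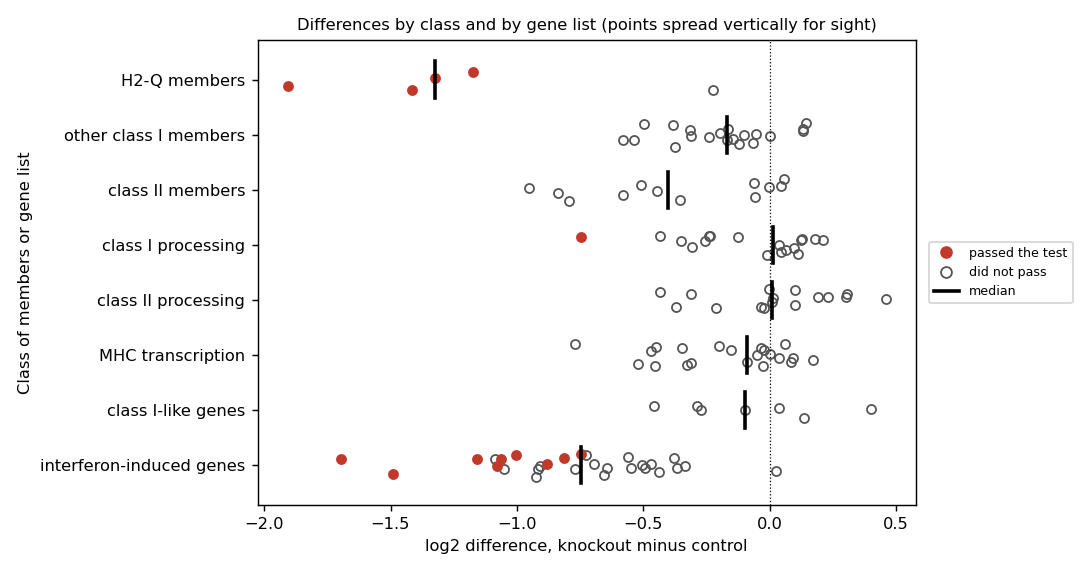
Log2 difference, knockout minus control, of each tested probe set or gene by class of members (upper 3 rows) and by gene list (lower 5 rows), with red points for those that passed and a bar at each median. The H2-Q median of -1.32 and the interferon-induced median of -0.75 lie to the left, and the class I and class II processing lists centre on 0.01.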

How the data were processed

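Per the labels, biotin-labelled cRNA from total liver RNA was hybridised, 1 mouse per array. The deposited values are linear array intensity per probe set, scaled by the authors, since every array has a mean of 500.0 once 2% of its values at each end are trimmed. Sources used here do not give the probe summary software, strain or genome build. Scaling sets the average of each array equal, so a change in total RNA would not be seen. Gene symbols came from the platform's probe table (34945 probe sets with 1 symbol, 932 with several, 9160 with none). Of the members 59 had 1 symbol and 15 several, and 36 were of a kind (_a_at, _s_at, _x_at) that can match several transcripts. Promoter windows were taken from RefSeq (GRCm38.p6).

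The tests used log2(signal + 16) and the moderated linear model of limma 3.58.1 (R 4.3.3), two-sided and with the prior variance following the mean signal. Benjamini-Hochberg adjustment covered the 27022 probe sets with a mean at or above the 40th percentile. This offset understates changes of dim genes. Named were the members that passed and the brightest tested probe set of each symbol entry (29 in all), with further sets of the same genes given beside them, and, of each gene list, those passing or the 2 of largest difference, with a few others of known role chosen after their values were seen. The members and lists were chosen with earlier results of these data known. The steps were tested on simulated data. There they recovered 14% of 1.5-fold, 42% of 2-fold, 84% of 4-fold and 96% of 8-fold changes, with 5 false calls among 123. A gene that did not pass may therefore still differ by 2-fold, and less often by 4-fold or more. Precision is limited by the number of arrays. The p-values set each difference against the spread between these mice, moderated by that of other probe sets of like signal.

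The labels' replicate numbers share only the number 3 between groups. Alternatives were other filters, offsets, normalizations, variance models and probe set choices, and leaving out each array.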

Additional observations from a re-analysis of the deposited data

How the results depend on the processing

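With 3 mice a group, 1 array can decide a call. Leaving out each array in turn gave 65 to 144 lower and 85 to 152 higher probe sets in all (195 and 220 with all arrays), 1 to 6 members lower (median difference -0.30 to -0.13) and 1 to 3 H2-Q probe sets lower (-1.52 to -1.25). The H2-Q count was 2 without knockout 3, knockout 5 or control 1, and 1 without control 2. It gave 0 other class I sets (-0.26 to -0.12) and 0 to 2 class II sets (-0.67 to -0.30), the 2 arising without control 3. Over all probe sets the lower and higher counts were 128 and 143 with no filter, 410 and 135 on the scale of the hybridisation controls, 38 and 71 without the variance trend, 0 and 0 with the variance of each probe set alone (2542 at an unadjusted p under 0.05), 115 and 126 for means over probe sets of an entry, and 135 and 205 after median centring. Scaling on the hybridisation controls moved the median of all probe sets to -0.19, that of the members to -0.36 and that of other class I to -0.33, with 1 call there. Members lower, and likewise H2-Q sets lower, numbered 1 without the trend, 0 with the variance of each probe set alone and 1 without probe sets of several symbols, where the H2-Q median was -0.70. When sets were dropped that can match several transcripts the medians of the members and of other class I were both -0.34. Signs turned for 9 members of which none passed the test. Scaling on the hybridisation controls turned H2-DMb2 (-0.11), Ciita (-0.068), Tapbp (-0.062), H2-K1 (-0.16), H2-T3 (-0.028) and H2-DMa (-0.095). Array weights turned H2-DMb2 (-0.022) and Ciita (-0.020), quantile (-0.12), cyclic loess (-0.11) and means over an entry (-0.022) turned H2-K1, and median centring turned H2-Ke6 (0.023). Without each array in turn H2-DMb2 ranged from -0.24 to 0.33, Ciita from -0.13 to 0.29, H2-K1 from -0.075 to 0.048, H2-D1 from -0.16 to 0.0024, H2-Ab1 from -0.17 to 0.039, H2-T3 from -0.11 to 0.39, H2-Ke6 from -0.24 to 0.15 and H2-DMa from -0.043 to 0.16. Causes were not tested. Of 585 comparisons of 29 named members with an alternative, 530 kept direction and side of the threshold. Most of these 530 are of sets that passed in neither fit. Of the rest, 21 lost a call, 7 gained one and 27 turned in sign. Only 4 of the 29 passed with the main settings, so all 21 losses fell on those 4 H2-Q sets. No paired analysis was made because the labels record no pairing of mice between the groups. Dim probe sets near the filter are limited by signal over background.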
